A study of Mus musculus with 81 samples.

Results

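Thymic lymphomas were compared by how strongly they expressed the genes of chromosome 14, taking the 10 mice with the highest chromosome 14 value and the 10 with the lowest from 31 lymphoma mice, in a series of 40 mice. The value of a mouse was the median, over 541 measured chromosome 14 genes, of log2(CPM + 1) minus the mean of 8 p53+/+ normal thymuses. CPM is the count of a gene scaled to a common library size, and each mouse was first centred on the median of its 14885 measured autosomal genes. The mice were chosen by these expression values of chromosome 14 genes, so what follows on chromosome 14 is a description, and tests are given for other chromosomes.

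RNA was sequenced from frozen thymic tissue of mice of the strain C57BL/6 x 129S4Sv/Jae. All groups carried the alleles Plk4(Col1a1), rtTA(Rosa) and centrin-GFP(Rosa), in which doxycycline switches on the transgene for Plk4, the kinase that controls centriole duplication. Lymphomas came from untreated p53-/- mice, from p53-/- mice given doxycycline for 2 weeks from 30 days of age, and from p53+/- mice given the same treatment. Normal thymus came from 8 p53+/+ mice and 1 p53+/- mouse, the latter with a chromosome 14 value of -0.009. Of the 81 libraries, 19 belong to the high class and 27 to the low class, and the biopsies of a mouse were summed to 1 sample. The summed depth was 9.48 to 64.47 M counts in the high class and 10.44 to 98.59 M in the low class.

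Mouse chromosome 14 carries the retinoblastoma gene Rb1, the T-cell receptor alpha and delta locus, and the Mir17hg transcript, the host of the miR-17-92 cluster of growth-promoting microRNAs. A thymocyte rearranges the delta and alpha segments of this locus in turn, and alpha rearrangement removes the delta segments that lie within it. Whole chromosomes are often gained or lost in lymphomas that lack p53. RNA gives relative expression and not DNA copy number, which was not analysed here. In bulk tissue, fewer cells of a type and less RNA per cell cannot be told apart.

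The 2 microRNA loci are shown because their host transcripts are members described below. The sequences are mature forms from RefSeq on GRCm38.p6, written 5′ to 3′, and capitals mark the seed, bases 2 to 8. MicroRNA levels were not measured. From Mir17hg, on the plus strand at chr14:115043684-115044496:
miR-17-5p: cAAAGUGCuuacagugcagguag
miR-20a-5p: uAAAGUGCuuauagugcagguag
miR-18a-5p: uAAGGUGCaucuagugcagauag
miR-19a-3p: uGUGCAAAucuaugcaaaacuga
miR-19b-3p: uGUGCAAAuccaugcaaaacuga
miR-92a-3p: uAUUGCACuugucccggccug
From the Dleu2 locus, on the minus strand at chr14:61631936-61632096:
miR-15a-5p: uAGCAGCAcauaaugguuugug
miR-16-5p: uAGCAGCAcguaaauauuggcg
The 8 sequences hold 5 seeds: miR-17-5p shares its seed with miR-20a-5p, miR-19a-3p with miR-19b-3p, and miR-15a-5p with miR-16-5p.

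The high class held 2 untreated p53-/- mice, 4 treated p53-/- mice and 4 treated p53+/- mice. The low class held 6, 2 and 2 of these. Treatment was thus given to 8 of 10 high mice and 4 of 10 low mice, a difference of 40 percentage points that did not pass a two-sided Fisher exact test (p = 0.17). Between the 5 highest and 5 lowest mice the difference was 80 percentage points (Fisher exact p = 0.0476). By label, 5 high mice were male and 5 female, against 8 and 2 in the low class. Sex-linked genes went against the labelled sex in 2 high mice (328 and 869) and in no low mouse. Without these mice, 6 of 8 high mice were treated, a difference of 35 percentage points (Fisher exact p = 0.188). Separate mice are the replicates, and no shared litter or sequencing batch is named in the labels.

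T-lineage markers were expressed in every mouse: their summed level was 3730 to 6930 CPM in the high class and 2760 to 9790 CPM in the low class. Summed markers of B cells, macrophages, fibroblasts, endothelium, thymic epithelium, fat and red cells also overlapped between the classes, and no marker was at 0 in all 20 mice. Within that overlap, fitted differences lay above 0 for 8 of 8 B-lineage markers (median 0.63), 1 of 8 thymic epithelium markers (median -0.35) and 0 of 4 red cell markers (median -1.35). Of all genes off chromosome 14, 39.2% lay above 0 (median -0.10), and no marker passed the test over all genes. For the red cell gene Hbb-bs the fitted difference was -1.25, but class medians were 6.93 log2 CPM in the high and 7.48 in the low class. Endothelial markers summed to a median of 202 CPM in the high and 122 CPM in the low class. Fibroblast markers reached 2970 CPM and macrophage markers 2170 CPM in mouse 266 of the high class, the highest of the 20. The part of such cells in the results was not tested.

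In the high class, chromosome 14 genes were expressed at 1.476 times the level of normal thymus, at 0.562 ± 0.071 on the log2 scale (SD, n = 10). The lowest of the 10 stood at 0.458, the median at 0.555 and the highest at 0.669. In the low class the mean was 0.009 ± 0.101 (SD, n = 10), or 1.006-fold, with a lowest value of -0.174, a median of 0.009 and a highest of 0.188. The 8 p53+/+ normal thymuses ranged from -0.048 to 0.053. An exact 1.5-fold level would be 0.585 on a pure log2 scale. The added 1 CPM and the centring on all autosomal genes both enter the values given here. Whether DNA copy number differed was not tested.

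No gap separated the low class from the remaining mice. Just outside the thresholds, mouse 490 stood at 0.430 beside the last high mouse at 0.458, and mouse 905 stood at 0.190 beside the last low mouse at 0.188. The 11 mice between the classes ranged from 0.190 to 0.430. Across all lymphomas the median was 0.033 in 10 untreated p53-/- mice, 0.43 in 9 treated p53-/- mice and 0.384 in 12 treated p53+/- mice, with overlapping ranges.

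**Figure D1:**
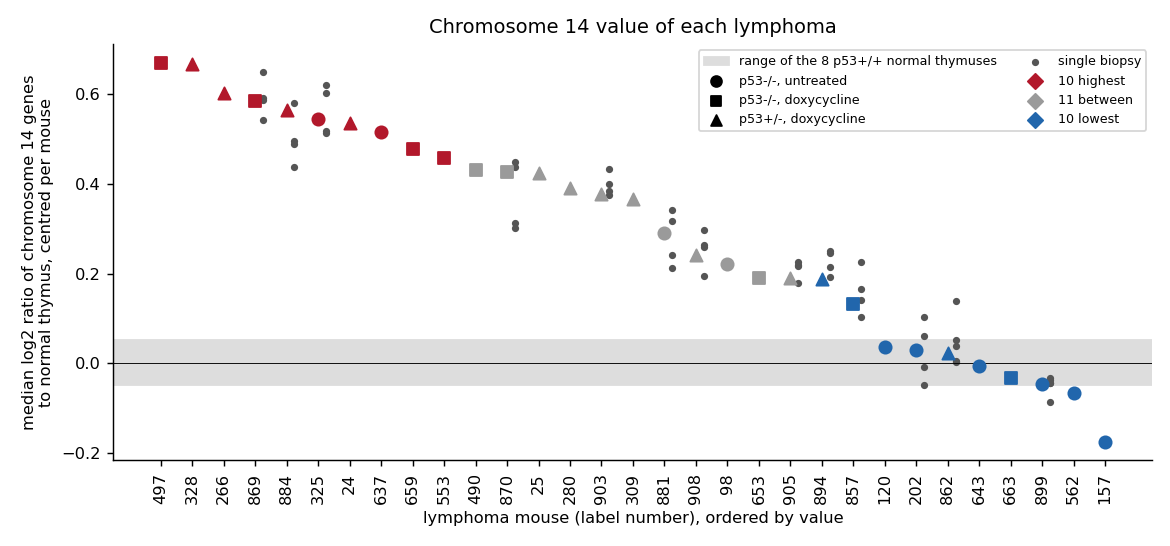
Chromosome 14 value (median log2 ratio to normal thymus, centred per mouse) of the 31 lymphoma mice in order; marker shape gives the study group, colour the class, small points single biopsies and the grey band the 8 p53+/+ normal thymuses. The 10 highest mice lie between 0.458 and 0.669, and the low class runs into the mice between the classes at 0.188 and 0.190.

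Biopsies of 1 tumour had similar values. Several biopsies had been sequenced in 3 high tumours, where the lowest biopsy stood at 0.438, and in 5 low tumours, where the highest stood at 0.25. The range within a tumour of these 2 classes was 0.054 to 0.152. No biopsy of a low tumour reached a biopsy of a high one. The same biopsies, summed, had set the classes, so nothing is read from this separation.

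The difference ran along the whole chromosome. Over 21 consecutive windows of 25 measured genes (41 in the last), the high class had the larger mean in 21, by 0.297 to 0.79 with a median of 0.556. In 6 windows every high mouse lay above every low mouse. The smallest difference was in the window from Bmpr1a to Gm7206, and the largest in the window from Tox4 to Trdv5, which holds many receptor segments. Of the 10 high mice, 8 lay above the low-class mean in all 21 windows, mouse 659 in 20 and mouse 553 in 19.

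**Figure D2:**
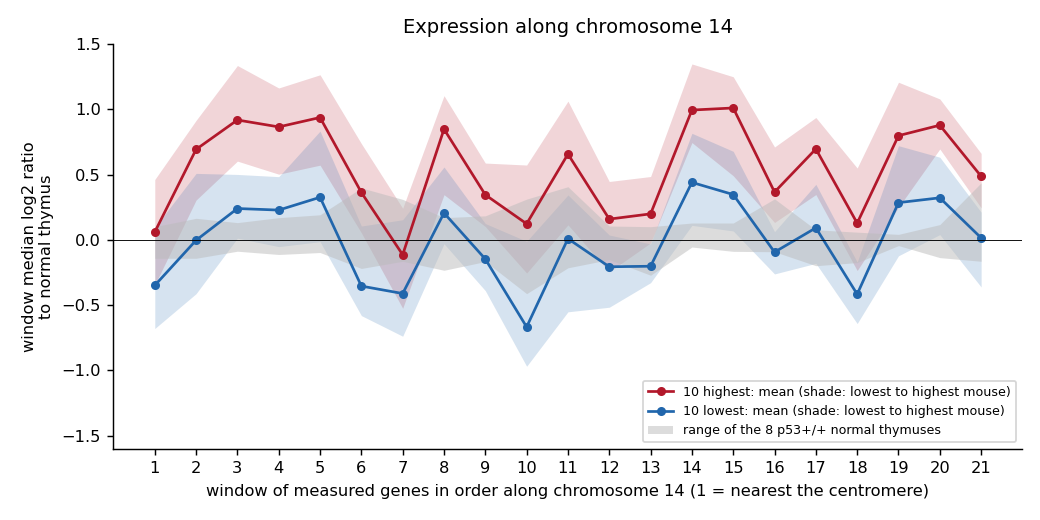
Median log2 ratio to normal thymus in 21 windows of consecutive genes along chromosome 14, as the class mean (line) with the lowest and highest mouse (shade), and the range of normal thymuses in grey. Both lines rise and dip together, and the high line lies above the low line in all 21 windows.

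Single genes were described by the log2 difference, high minus low, of an edgeR fit with labelled sex. Of 620 chromosome 14 genes that passed the filter on low counts, among 1784 annotated ones, 508 (81.94%) had a difference above 0, against 39.2% of genes off the chromosome. The median difference was 0.54 on chromosome 14 and -0.10 elsewhere. Among 310 chromosome 14 genes with a mean of at least 4 log2 CPM, 290 lay above 0 and the quartiles of the differences were 0.40 and 0.70. Every high mouse lay above every low mouse for 8 chromosome 14 genes (Prkcd, Capn7, Tmem55b, Supt16, Ipo4, Dleu2, Ppp2r2a and Wbp4). Off the chromosome this held for 0.00603% of genes. Since the rule used these genes, nothing is read from either contrast.

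Genes of the cell cycle and DNA metabolism were higher in the high class for 16 of 16 members, with a median difference of 0.89. Of all 620 chromosome 14 genes fitted, 81.94% lay above 0 (median 0.54), and 93.55% of those with a mean of at least 4 log2 CPM. The mice were chosen by chromosome 14 genes, so nothing is read from the counts of this list and those below. Rb1, which restrains entry into S phase, ranged from 6.24 to 7.50 log2 CPM in the high class (median 6.66) and from 5.13 to 6.40 in the low class (median 5.84). Its difference was 0.85 ± 0.20 (SE), and normal thymuses, at 6.18 to 6.74 (median 6.49), overlapped with both classes. Cdca2, a mitotic phosphatase-targeting protein, ranged from 6.43 to 7.68 in the high class (median 7.16) and from 5.23 to 7.04 in the low class (median 5.76), a difference of 1.18 ± 0.20. Esco2, which acetylates cohesin, differed by 1.11 ± 0.21, and Apex1, a base excision repair nuclease, by 0.48 ± 0.12. Both classes lay above normal thymus for Apex1, whose highest normal value was 5.22 against a lowest low-class value of 6.31.

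RNA and chromatin genes were likewise above 0 for 13 of 13 members, with a median of 0.60. Supt16, a subunit of the histone chaperone FACT, ranged from 8.90 to 9.99 log2 CPM in the high class (median 9.22) and from 8.10 to 8.80 in the low class (median 8.36). The 2 classes did not overlap for it. Mettl3, the catalytic subunit of the m6A RNA methyltransferase, differed by 0.85 ± 0.16. The smallest difference of the group was 0.36 ± 0.18, for the RNA-binding protein gene Hnrnpc.

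Among proteasome and immune genes, 8 of the 9 that passed the filter lay above 0, with a median of 0.38; Psmb11, the thymus-specific proteasome subunit, was filtered out. The proteasome subunit gene Psmb5 differed by 0.79 ± 0.30 and Psmc6 by 0.76 ± 0.23. Prkcd, a protein kinase C gene, did not overlap between the classes: it ranged from 6.60 to 7.49 log2 CPM in the high and 5.77 to 6.47 in the low class. Irf9, an interferon response factor, had a difference of 0.08 ± 0.22, with class medians of 4.72 in the high and 4.86 in the low class. Blk, a B-lineage kinase gene, ranged from -0.79 to 4.57 in the high class (median 1.43) and from -3.89 to 7.14 in the low class (median 1.07). Its fitted difference of -1.16 ± 1.76 went against the class medians, and mouse 120, at 7.14, stood far above the other low mice.

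Signalling and T-cell genes had a wider spread of differences. Of 17 members 11 lay above 0, with a median of 0.30. Trac, the constant gene of the alpha chain, ranged from 6.80 to 10.40 log2 CPM in the high class (median 8.22) and from 4.99 to 8.17 in the low class (median 6.62), a difference of 1.48 ± 0.57. Trdc, the constant gene of the delta chain, ranged from -3.89 to 3.67 in the high class (median -1.74) and from -3.89 to 7.26 in the low class (median 1.23), against 4.43 to 7.32 in normal thymuses. Its difference was -3.67 ± 1.83, so the neighbouring alpha and delta constant genes had opposite signs. Gpr183, a chemotactic receptor gene, had a fitted difference of -1.50 ± 1.01 but class medians of 0.93 in the high and 0.49 in the low class, and Mapk8, a stress kinase gene, by 0.65 ± 0.19.

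Both microRNA hosts lay above 0. Mir17hg ranged from 3.80 to 6.17 log2 CPM in the high class (median 5.04) and from 3.85 to 4.63 in the low class (median 4.32), a difference of 0.92 ± 0.30. Of the high mice 6 lay above every low mouse and 1, at 3.80, lay below them all. Dleu2, the noncoding host of miR-15a and miR-16-1, ranged from 5.69 to 6.50 in the high class (median 6.07) and from 3.73 to 5.65 in the low class (median 4.71). Its classes did not overlap, the difference was 1.19 ± 0.23, and normal thymuses lay at 4.28 to 5.70. The strand used in counting is not given in the sources used here, so reads of Dleu2 and of genes that overlap it cannot be told apart.

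**Figure D3:**
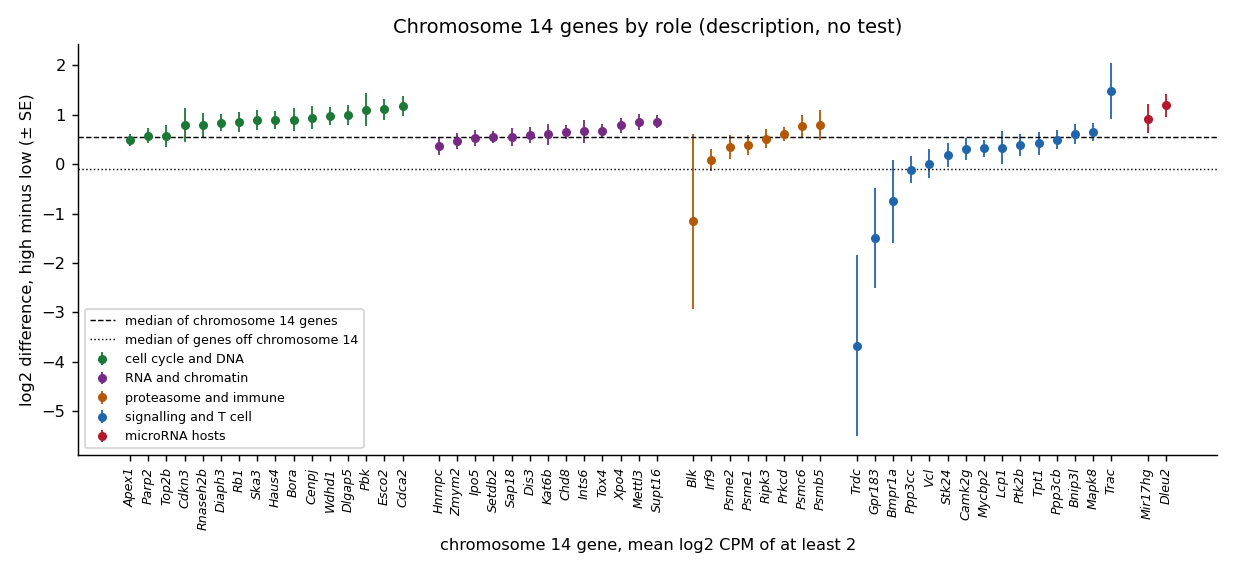
Log2 difference, high minus low, with its SE for chromosome 14 genes of 5 role lists with a mean of at least 2 log2 CPM; dashed and dotted lines mark the medians of chromosome 14 genes and of genes off it. Cell cycle genes lie from 0.48 to 1.18, while the signalling list spreads from -3.67 for Trdc to 1.48 for Trac.

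The largest differences among protein-coding chromosome 14 genes of at least 4 log2 CPM were those of Rcbtb2 (1.82), Colq (1.56), Cdh24 (1.22), Cdca2 (1.18) and Lpar6 (1.14). The smallest were those of Scara3 (-2.62), Stc1 (-2.29), Mmp14 (-1.11), Tnfrsf19 (-0.94) and Epsti1 (-0.90). Classes overlapped for each of these 5 and for each of the 5 largest. Fitted on counts, the difference weighs mice with very high counts: for Tnfrsf19 and Epsti1 it was negative although the class medians, 4.50 against 3.80 and 4.82 against 4.50 log2 CPM, were larger in the high class.

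Beyond chromosome 14, the high class had higher values than the low class on chromosomes 4 and 15, and lower values on chromosomes 3 and 10. Of 18 tested, these 4 passed a two-sided permutation test with Benjamini-Hochberg adjustment over 18. Chromosome 15 stood at 0.431 ± 0.151 in the high and 0.183 ± 0.167 in the low class (SD, n = 10 each), a difference of 0.248 (permutation adjusted p = 0.0223). Chromosome 4 stood at 0.364 ± 0.125 and 0.141 ± 0.186, a difference of 0.223 (permutation adjusted p = 0.0318). For chromosome 10 the class means were -0.154 ± 0.069 and 0.035 ± 0.124, a difference of -0.190 (permutation adjusted p = 0.00972). Chromosome 3 was at -0.199 ± 0.062 and -0.072 ± 0.102, a difference of -0.126 (permutation adjusted p = 0.0246).

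All 4 had overlapping classes, though 6 of 10 high mice exceeded every low mouse on chromosome 15 and 6 of 10 lay under every low mouse on chromosome 10. Each kept its direction within all 3 study groups and within both labelled sexes. Chromosome 15, for example, differed by 0.211 in untreated p53-/- mice, 0.196 in treated p53-/- mice and 0.373 in treated p53+/- mice. Chromosome 10 differed by -0.243, -0.079 and -0.158 in the same order. These groups held as few as 2 mice of a class and were not tested. In the 12 treated mice alone, 8 high and 4 low, no autosome passed, with exact permutation adjusted p from 0.156 to 0.218 for these 4. The differences there were 0.284 for chromosome 15, 0.174 for chromosome 4, -0.118 for chromosome 10 and -0.095 for chromosome 3.

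Because a mouse was centred on all autosomal genes, chromosome 14 included, a high chromosome 14 slightly lowers its other values. Centred on genes off chromosome 14, the same 4 passed: chromosome 3 at -0.113 (permutation adjusted p = 0.036), chromosome 4 at 0.237 (0.0311), chromosome 10 at -0.176 (0.0155) and chromosome 15 at 0.262 (0.0155). Without centring, chromosome 15 alone passed (0.284, permutation adjusted p = 0.00108). Chromosome 4 stood at 0.259 (permutation adjusted p = 0.0985), chromosome 10 at -0.154 (0.458) and chromosome 3 at -0.091 (0.838). Between the 5 highest and 5 lowest mice, chromosomes 4 (0.321, exact permutation adjusted p = 0.0714) and 15 (0.285, exact permutation adjusted p = 0.143) no longer passed. Chromosomes 3 and 10 still did, and chromosome 13 also passed, at -0.172 (exact permutation adjusted p = 0.0476). Without the 2 mice of discordant sex, chromosome 4 no longer passed (0.197, exact permutation adjusted p = 0.111) and the other 3 did.

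**Figure D4:**
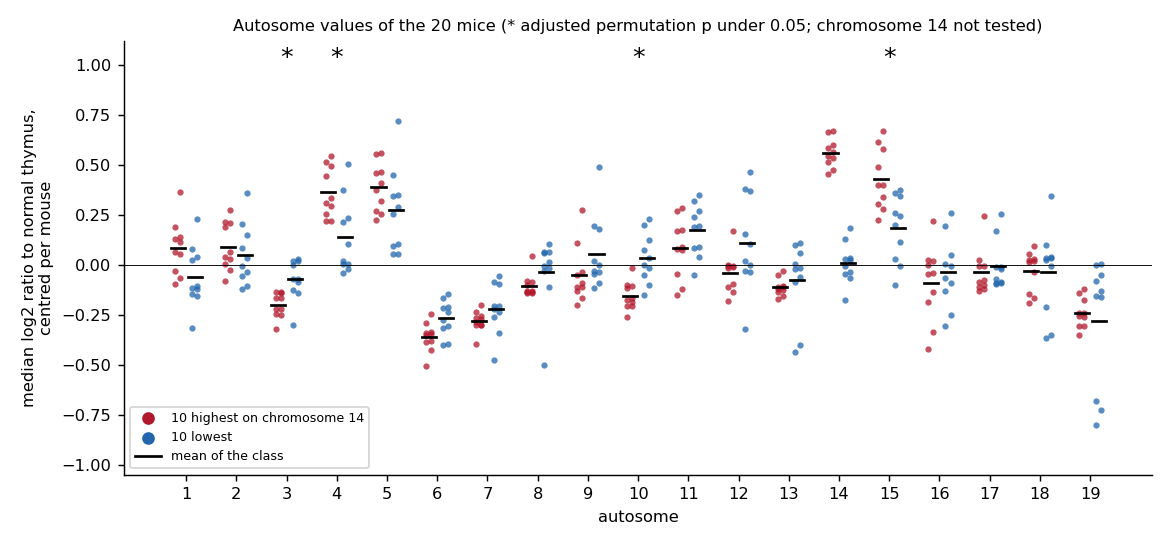
Median log2 ratio to normal thymus of each autosome, centred per mouse, in the 10 highest and 10 lowest mice on chromosome 14; each point is a mouse and black lines are class means. Asterisks mark chromosomes 3, 4, 10 and 15; chromosomes 5, 6 and 7 lie on 1 side of 0 in all 20 mice.

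Some departures from normal thymus were common to both classes. Chromosome 5 lay above the range of normal thymuses in all 20 mice, and chromosomes 6 and 7 lay below it in all 20. Chromosome 6 differed by -0.095 between the classes (permutation adjusted p = 0.0635). The SD over the 18 other autosome values of a mouse, a measure of imbalance, was 0.247 ± 0.033 in the high and 0.225 ± 0.052 in the low class (SD, n = 10 each). That difference of 0.022 did not pass (permutation p = 0.286), nor did that of 0.023 without the mice of discordant sex (exact permutation p = 0.294), and normal thymuses ranged from 0.012 to 0.043.

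Single genes off chromosome 14 differed weakly. With edgeR's quasi-likelihood test and Benjamini-Hochberg adjustment over all genes, 22 of 16581 genes (0.133%) passed. Of these, 12 were higher (0.0724% of genes tested) and 10 lower (0.0603%). When the adjustment was made over the genes off chromosome 14 alone, 0 passed, with edgeR adjusted p of 0.134 to 0.165 for the named ones. The 22 calls thus rest on having chromosome 14 genes in the adjustment. At an unadjusted p under 0.05 there were 1622 genes (9.78%) by edgeR, and DESeq2 called 288. With study group added to sex as a covariate, edgeR called 16 genes, of which 9 were among the 22. No gene passed by edgeR without the 2 mice of discordant sex, or without mouse 862 of the low class, and 128 passed without mouse 857. Every gene verb below refers to the test over all genes.

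Among genes with a positive difference was Slc35d1, a nucleotide-sugar transporter gene on chromosome 4. It ranged from 5.35 to 8.44 log2 CPM in the high class (median 5.93) and from 3.86 to 5.27 in the low class (median 4.46). Slc35d1 was the one gene off chromosome 14 with every high mouse above every low mouse. Its difference was 1.70 ± 0.32 (SE, edgeR adjusted p over genes off chromosome 14 = 0.134). Lypd1, which encodes a Ly6-family membrane protein, had the largest positive difference of the named genes, 5.08 ± 0.91 (edgeR adjusted p over genes off chromosome 14 = 0.134). Of the high mice 7 lay above every low mouse for Lypd1, but 1 stood at -3.89, below them all. Nat8l, the N-acetylaspartate synthase gene, differed by 2.53, and its normal range of 2.89 to 6.06 lay above the low-class median of 0.97.

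Mr1, which presents vitamin metabolites to MAIT cells, differed by 1.55 and Stx6, a syntaxin gene, by 1.05. Their genes lie close together on chromosome 1. Cenpf, a kinetochore protein gene also on chromosome 1, differed by 0.92. Chst1, Fam91a1 and Troap came next and did not pass.

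Aig1, on chromosome 10, ranged from 1.39 to 3.20 log2 CPM in the high class (median 2.61) and from 3.27 to 5.03 in the low class (median 4.03). Aig1 was the one gene with every high mouse below every low mouse. Its difference was -1.36 on the log2 scale (edgeR adjusted p over genes off chromosome 14 = 0.134). Mpzl2, an adhesion protein gene, had a fitted difference of -5.36, but class medians were 0.61 in the high and 3.24 in the low class. Its low class spread from 0.78 to 9.08, with 4 high mice within it. Nlrx1, a mitochondrial NOD-like receptor gene, differed by -2.01, Plekha1 by -1.53, Arhgef10 by -1.24, and Ppil4 by -0.55. Fyn, a T-cell receptor kinase gene, and Tet1, a DNA demethylation enzyme gene, both on chromosome 10, differed by -0.87 (edgeR adjusted p = 0.0602) and -2.90 (0.0621) and did not pass.

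**Figure D5:**
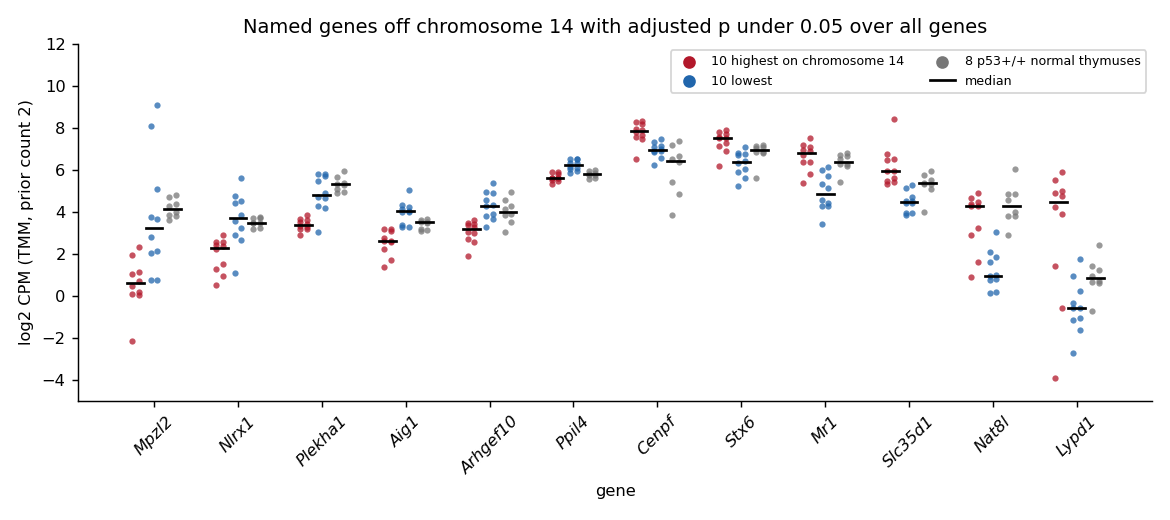
Log2 CPM of 12 genes off chromosome 14 that passed over all genes, in the 10 highest and 10 lowest mice on chromosome 14 and the 8 p53+/+ normal thymuses; points are mice and black lines medians. Slc35d1 and Aig1 do not overlap between the classes, and the other 10 do.

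Counts of single genes were also uneven between chromosomes. At an unadjusted edgeR p under 0.05, chromosome 10 had 13 genes higher (1.6%) and 166 lower (20.4%) of 812, and chromosome 3 had 8 higher (0.946%) and 97 lower (11.5%) of 846. Chromosome 4 had 77 higher (7.29%) and 31 lower (2.94%) of 1056, and chromosome 15 had 66 higher (10.8%) and 14 lower (2.28%) of 613. Autosomes that did not pass were uneven too: chromosome 1 had 91 higher and 33 lower of 1087, chromosome 6 had 23 and 89 of 925, and chromosome 11 had 19 and 114 of 1381. Over all genes off chromosome 14 the shares were 3.18% higher and 6.6% lower.

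No gene of the 9 pathway lists passed. Notch receptors and targets had the lowest list median, -0.60 over 11 genes against -0.10 for all genes off chromosome 14. Its 3 members with an unadjusted edgeR p under 0.05 were Dtx1 (-2.23), Nrarp (-2.04) and the oncogene Myc (-0.60), which lies on chromosome 15, and all 3 had overlapping classes. At the same unadjusted level, which 6.6% of genes off chromosome 14 reached with a negative and 3.18% with a positive difference, the Rb pathway had 5 of 12 genes with a negative difference (Ccnd2, Cdk4, Cdk6, Cdkn2b and E2f4) and 1 with a positive one (Cdkn2c). The class medians of Ccnd2 were close, 3.58 log2 CPM in the high and 3.64 in the low class, with a highest low mouse at 12.74. Of 20 E2F targets and proliferation genes, 3 had a positive difference at this level (E2f2, Ccnb1 and Mcm6; edgeR adjusted p of 0.276, 0.346 and 0.415), and the median was 0.12.

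For thymocyte stage the median of 20 genes was -0.01. Cd4, the coreceptor gene, ranged from 6.51 to 8.61 log2 CPM in the high class (median 7.47) and from 4.96 to 7.91 in the low class (median 5.98), a difference of 1.27 ± 0.35 (edgeR adjusted p = 0.11). Ccr9, a thymic homing receptor gene, differed by 1.93, and Lef1, a T-lineage transcription factor gene, by -1.26. Among 10 reported targets of the miR-17 and miR-15 families the median was -0.04. The p53 target list had a median of -0.13 over 11 genes, and the medians were -0.08 for interferon-stimulated genes, -0.05 for proteasome genes and -0.09 for chaperones.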

How the data were processed

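The authors deposited 1 table of RSEM expected counts for 51826 genes in 81 libraries. Per the submitters' processing notes, CASAVA 1.8, fastp, STAR 2.7.2b and RSEM 1.1.17 were used with mm10; their roles are not stated there. Of the deposited expected counts, 14.25% were not whole, and they were summed per mouse and rounded for count tests. Library totals were 1.03 to 26.87 M counts. Gene positions came from GENCODE M21 by Ensembl ID (51633 matched). The members and lists were chosen with earlier results of these data known.

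Differences were fitted in edgeR 4.0.16 (R 4.3.3; TMM, filterByExpr, robust quasi-likelihood, labelled sex); DESeq2 1.42.0 was an alternative. Adjusted p under 0.05 passed. Printed log2 CPM used a prior count of 2, so a value of -3.89 is at the floor. Autosome values used genes with a mean of at least 1 CPM and 100000 permutations (scipy 1.17.1), or all permutations where a class held fewer than 10 mice. Named genes off chromosome 14 were the 10 largest rises and falls among passing protein-coding genes with a mean of at least 2 log2 CPM, filled by the lowest p; some genes under this rule and in the lists are not reported here.

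The code was tested on simulated data. There, a gain of chromosome 14 alone, with little spread between mice, made other autosomes pass through small downward shifts when all genes were used for centring, and none when chromosome 14 was left out. The real values are therefore given under both. The gain itself was understated, with a pseudocount of 1 in every run, and the step that lowered it was not tested.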

Additional observations from a re-analysis of the deposited data

Results flagged for a closer look

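Of 80 sets of 10 mice examined for a lone extreme value with Dixon's test, 11 were flagged; chance flags about 1 in 20. In the high class, mouse 869 stood apart on chromosome 7 at -0.397 and on chromosome 8 at 0.046. Mouse 637 stood apart on chromosome 12 at 0.171 and mouse 659 on chromosome 17 at 0.245. Mouse 266 was extreme for Slc35d1 at 8.44 log2 CPM and for Mpzl2 at -2.13, and mouse 884 for Cenpf at 6.52. In the low class, mouse 857 stood apart on chromosome 3 at -0.301. Mouse 202 stood apart on chromosome 8 at -0.5 and on chromosome 9 at 0.491. Mouse 562 had the lowest imbalance, at 0.106.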

How the results depend on the processing

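Genes off chromosome 14 depended on the processing: 22 passed in edgeR, against 288 with DESeq2, 6 with no filter, 55 with no covariate, 16 with sex and study group as covariates (9 of them among the 22), 168 with the chromosome 14 value as a continuous term over 31 mice, and 0 with adjustment over genes off chromosome 14, with the 5 highest against the 5 lowest, without mice of discordant sex, or in doxycycline-treated mice only. Leaving out 1 mouse at a time gave 0 to 128 genes; the cause was not tested. The number of other autosomes that passed was 1 without centring, 3 for the 5 highest against the 5 lowest (chromosomes 3, 10 and 13) and 0 in doxycycline-treated mice only, where fewer mice were tested, and 3 to 6 with 1 mouse left out; chromosome 4 lost its call in 9 of these 20 fits. The difference in imbalance ranged from 0.008 to 0.029 with 1 mouse left out. The difference in treated mice rose to 80 percentage points for the 5 highest against the 5 lowest. Leaving out mice of discordant sex was added for autosomes, imbalance and treatment after seeing the data; 3 autosomes passed, and the other 2 results stayed on the same side of the threshold. Of the 20 class members, 16 stayed with a minimum of 10 CPM, and 18 to 20 under the other alternatives. No named gene changed direction. Over the alternatives, the 13 named genes that passed over all genes kept their call 191 times and lost it 212 times. The call was kept in 6 of 31 settings for Nlrx1, 8 for Cenpf and 26 for Lypd1. No paired analysis was possible because the mice carry no numbers shared between the classes.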

Other observations

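Mouse 98, which lies between the classes at 0.222, had the most uneven chromosome 14 of the 31 lymphomas. Relative to the low-class mean its 21 windows ran from -0.614 to 1.32, with an SD of 0.482, and 13 of them lay above that mean. Among the 10 high mice this SD was at most 0.294.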
